A study of Mus musculus with 36 samples.

Results

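The heat shock and J-domain chaperone genes were followed in extracellular vesicles (EVs) and in the fetal neural stem cells (NSCs) that shed them. Members were the genes whose symbols begin with Dnaja, Dnajb, Dnajc, Hspa, Hspb, Cct or Hsf and a number, or with Hsp90, plus Hspd1, Hspe1 and Hsph1. Hspa5, the HSP70 of the endoplasmic reticulum (ER), was left out. The rule used symbols alone and found 86 of the 40205 genes in the count files. The samples were neurosphere cultures from the dorsal telencephalon of C57BL/6J wild type mouse fetuses at gestational day 12.5, a line that the study's methods describe as carrying the Ai14 reporter. Fetal tissue was pooled by sex within each of 3 pregnancies (numbered 3, 4 and 5), so that a female or male culture is a pool and not 1 animal. Each of the 6 cultures was grown for 5 days with 0, 120 or 320 mg/dL ethanol, and each culture and dose gave 1 EV and 1 cell library. This yielded 18 EV and 18 cell libraries. With 3 pregnancies, the p-values below measure the spread among libraries of few litters.

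Chaperones hold unfolded proteins and help them reach their native shape. HSP70 proteins bind and release short stretches of unfolded chain in a cycle driven by ATP. J-domain proteins deliver clients to HSP70 and stimulate its ATPase, HSP110 proteins exchange its nucleotide, and HSP90 acts later on client proteins such as kinases and receptors. The ring complexes TRiC (built from Cct subunits) and HSP60 with HSP10 fold proteins inside a chamber. In heat shock the transcription factor Hsf1 binds heat shock elements and raises many of these genes together, while the unfolded protein response raises those of the ER through another element.

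Some promoters of the members carry a heat shock element or an ER stress element, and most carry neither. A selection of the matches is shown here, from members whose values are described below. Hspa1a, Hspd1 and Hspe1 are among the members that also hold a heat shock element and are not shown. Promoter sequences came from RefSeq (build GRCm38.p6), and 69 of the 86 members had an entry. The 250 bases before each start were searched on both strands for a heat shock element, spelled GAANNTTC or TTCNNGAA, and for the ER stress element, CCAAT and CCACG with 9 bases between them. A heat shock element was found in 18 of the 69 members (26.1%), beside 14.5% of the 27025 genes with an entry. The ER stress element was found in 2 of the 69 members, beside 35 genes in all. Dnajb1 and Hspa4l had no heat shock element in this window, and Dnajb9 and Dnajb11 had no ER stress element. Positions are those of an exact match to GRCm39, the 30 bases run 5′ to 3′ on the strand of the gene, and capitals mark the element.
Dnaja4, chr9:54606742-54606771, plus strand: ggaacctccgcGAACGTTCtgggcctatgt
Dnaja4, chr9:54606780-54606809, plus strand: gcctcctggcgGAACCTTCcgccggcgccg
Dnaja1, chr4:40722333-40722362, plus strand: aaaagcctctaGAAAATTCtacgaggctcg
Hsph1, chr5:149559816-149559845, minus strand: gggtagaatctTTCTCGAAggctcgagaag
Hspa1b, chr17:35178300-35178329, minus strand: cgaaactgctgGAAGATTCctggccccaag
Hspb1, chr5:135916645-135916674, plus strand: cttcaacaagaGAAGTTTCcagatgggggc
Hspb1, chr5:135916665-135916694, plus strand: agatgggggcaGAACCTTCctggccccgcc
Hsp90b1, chr10:86541496-86541525, minus strand: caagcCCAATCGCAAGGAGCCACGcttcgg
Hsp90b1, chr10:86541391-86541420, minus strand: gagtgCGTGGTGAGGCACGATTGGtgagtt
Dnajc3, chr14:119175234-119175263, plus strand: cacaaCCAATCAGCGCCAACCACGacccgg
The elements of Dnaja4, Dnaja1 and Hsph1 lie before a RefSeq start but inside exons of other GENCODE transcripts of the same genes. For Dnaja4 both elements lie before the downstream of its RefSeq starts. They lie after its upstream start, which had none before it. Those of Hspa1b, Hspb1 and Dnajc3 lie in no annotated exon. The first Hsp90b1 element lies in an exon of Ttc41 on the other strand, and the second, which reads on the opposite strand, lies in an exon of a minor Hsp90b1 transcript. A match is a description of the letters and not a shown binding site.

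EV libraries were shallower than cell libraries, with totals of 959217 to 5509952 counts beside 26566061 to 55282322 counts. The members took 0.156% to 0.338% of the counts in EVs (median 0.278%) and 0.432% to 0.895% in cells (median 0.563%), and these ranges did not overlap. Levels below are counts per 1000000 (CPM) on library sizes scaled by TMM, a factor that sets the bulk of genes level between libraries. Fold changes are log2 with their standard error (SE). Of the 8 NSC markers, the summed level was 2649 to 4167 CPM in cells and 741 to 1322 CPM in EVs, although Sox2 was listed at 0 in every library. Markers of neurons summed to 426.4 to 876.7 CPM in cells and 210.5 to 360.4 CPM in EVs, led by Map2. Those of the oligodendrocyte lineage summed to 36.2 to 153.0 CPM in cells and 41.4 to 122.2 CPM in EVs, led by Olig2. Those of astrocytes summed to 19.6 to 247.3 CPM in cells and 14.7 to 138.6 CPM in EVs. Gfap led these, and Aqp4 was at a median of 0 in both. Markers of endothelium summed to 1.28 to 4.08 CPM in cells and 2.72 to 75.8 CPM in EVs, with Flt1 and Pecam1 called higher in EVs and Cldn5 at a median of 0 in both. Markers of microglia summed to 0.306 to 0.581 CPM in cells and 0 to 11.7 CPM in EVs, with P2ry12 at a median of 0 in both. Their part in the EV differences below was not tested.

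Most chaperone transcripts were lower in EVs than in the cells. Of the 86 members, 72 passed the filter on low counts and were tested, and 47 of these were lower and 14 higher in EVs at an adjusted p under 0.05. Over all 15281 genes tested, 42.2% were lower and 38.4% higher. The median log2 fold change of the members was -0.89, beside -0.08 over all genes. Scaling to library totals moved the median of all genes to -0.88 and the split of the members to 59 lower and 7 higher, beside 60.8% and 22.4% of all genes. The 7 were Dnaja4, Dnajc5, Dnajc5b, Dnajc6, Dnajc27, Cct6b and Hspa12a. Pairing each EV library with the cells it came from gave 48 lower and 14 higher, beside 41.8% and 38.1%. DESeq2, which tested 82 members with no filter on low counts, called 48 lower and 21 higher, beside 20.3% and 54.5% of 31069 genes. The 6 J proteins grouped under the ER, all 3 HSP90 genes and all 3 HSP110 genes were lower. So were both subunits of the mitochondrial chaperonin and all 7 TRiC subunits named Cct. Members called higher were spread over the J proteins of class A (1 of 4), B (2 of 8) and C (7 of 22), the other HSP70 proteins (2 of 5), the heat shock factors and their partners (1 of 4) and Cct6b.

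**Figure D1:**
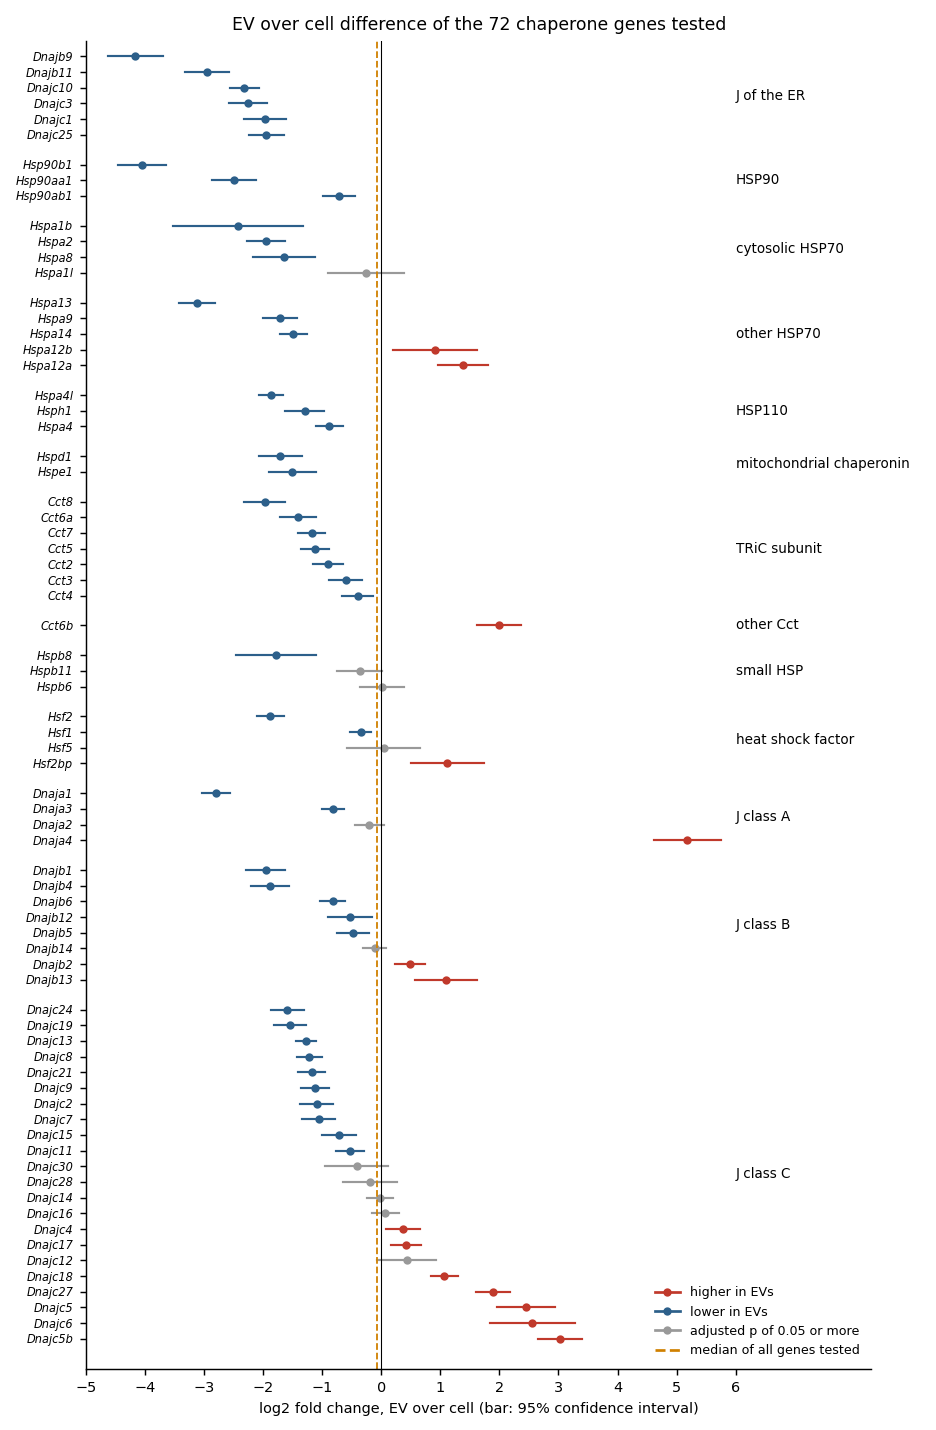
Log2 fold change of EVs over cells for the 72 members tested, grouped by role, with bars for the 95% confidence interval. Points run from -4.16 (Dnajb9) to 5.18 (Dnaja4), and the dashed line marks the median of all genes tested, -0.08.

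Class A J proteins are close relatives of bacterial DnaJ, and the 4 members went different ways. Dnaja4, a cytosolic partner of HSP70, had 170.3 to 1569 CPM in EVs (median 638) and 11.2 to 32.0 CPM in cells (median 17.04). Every EV library lay above every cell library, and the medians differed 37.4-fold. How many of all genes separate in full between EVs and cells was not counted, here or for the members below. The fitted log2 fold change was 5.18 (SE 0.28, adjusted p = 1.28e-18), the highest among the members tested. Dnaja1, its relative, also has a heat shock element before a RefSeq start. It had 6.60 to 14.9 CPM in EVs (median 9.32) and 48.9 to 116.7 CPM in cells (median 65.3). Here every EV library lay below every cell library, and the fitted difference was -2.80 (SE 0.12, adjusted p = 1.19e-21). Dnaja3, the mitochondrial member, was also lower in EVs (-0.82, SE 0.10, adjusted p = 9.72e-10), and Dnaja2 gave -0.20 (SE 0.12, adjusted p = 0.115). Per kilobase of exon, Dnaja4 had the highest level of any member in EVs at 86.9 CPM per kilobase, and it ranked 43 among members in cells. The gene overlaps Skic8 on the opposite strand, and how strand entered the counting is not given in the sources used here.

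**Figure D2:**
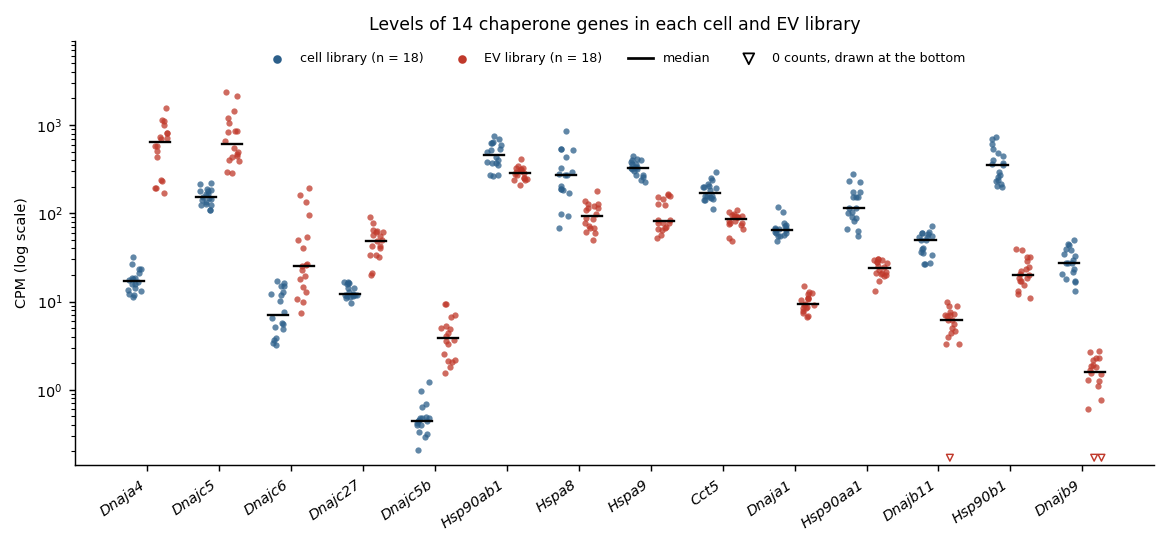
CPM on a log axis of 14 members in each of the 18 cell libraries and 18 EV libraries, with the median of each group as a bar and libraries at 0 counts as open triangles at the bottom. Dnaja4 lies at 170.3 to 1569 CPM in EVs above 11.2 to 32.0 CPM in cells, while Hsp90b1 lies at 11 to 39.6 CPM in EVs below 197.8 to 738.7 CPM in cells.

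J proteins of vesicle traffic went both ways in EVs. Of a list of 5 such members, 4 were tested, Dnajc5, Dnajc5b and Dnajc6 were called higher and Dnajc13 lower, and Dnajc5g was not tested. Dnajc5 is the cysteine string protein of secretory and synaptic vesicles, Dnajc5b is its relative, and Dnajc6 is auxilin, which helps HSP70 strip clathrin from vesicles. Dnajc5 had 283.2 to 2389 CPM in EVs (median 607.5) and 108.5 to 220.8 CPM in cells (median 151.3). The groups did not overlap, and the log2 fold change was 2.45 (SE 0.24, adjusted p = 2.33e-11). Dnajc6 had 7.35 to 192.4 CPM in EVs (median 25.5) and 3.20 to 17.03 CPM in cells (median 7.03). These ranges overlapped, although the EV mean was higher in each of the 6 cultures (2.56, SE 0.36, adjusted p = 4.39e-08). Dnajc5b was low throughout, at 1.53 to 9.31 CPM in EVs and 0.206 to 1.22 CPM in cells, and its difference of 3.03 (SE 0.18, adjusted p = 3.42e-17) rests on 3 to 23 counts per EV library. The endosomal J protein Dnajc13 was at 14.9 to 29.6 CPM in EVs and 40.1 to 60.3 CPM in cells (-1.27, SE 0.08, adjusted p = 2.15e-16). Gak, the auxilin of dividing cells and no member by symbol, was lower in EVs as well (-1.12, SE 0.08, adjusted p = 1.65e-14).

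The levels of Dnajc5 and Dnajc6 in EVs moved with the depth of the library. In the 6 EV libraries under 2000000 counts Dnajc5 had 852.1 to 2389 CPM (median 1304), and in the other 12 it had 283.2 to 1056 CPM (median 457.7). Dnajc6 had 40.8 to 192.4 CPM in the shallow libraries (median 115.6) and 7.35 to 49.3 CPM in the others (median 18.8). Dnaja4 ran the opposite way, with medians of 236.3 CPM in the shallow and 767.8 CPM in the other libraries. The shallow libraries were all 3 of the female culture of pregnancy 4 and 3 of pregnancy 3. Without them the members split into 50 lower and 14 higher, beside 7154 and 6144 of 17154 genes. Dnajc5, Dnajc6 and Dnaja4 all remained higher in EVs. The part of depth in the spread among EV libraries was not tested.

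**Figure D3:**
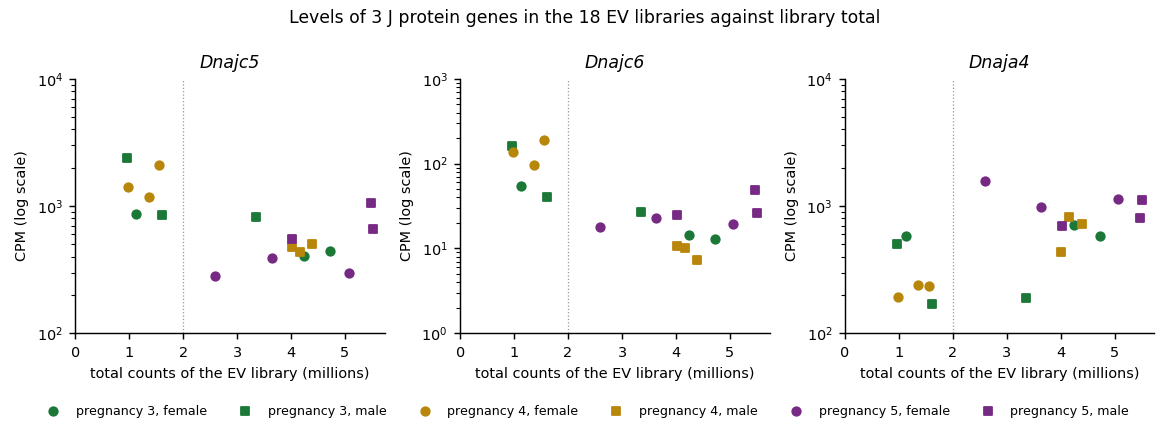
CPM on a log axis of Dnajc5, Dnajc6 and Dnaja4 in the 18 EV libraries against the library's total counts, coloured by pregnancy, with circles for female and squares for male cultures and a dotted line at 2000000 counts. The 6 libraries left of the line hold Dnajc5 at 852.1 CPM or more, and the others reach 1056 CPM at most.

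Other J proteins of class C followed both directions. Dnajc27, which carries a Ras-like GTPase domain, had 19.7 to 91.8 CPM in EVs and 9.70 to 16.7 CPM in cells, without overlap (1.89, SE 0.14, adjusted p = 1.26e-14). Dnajc18 was also higher in EVs (1.07, SE 0.11, adjusted p = 8.68e-11), although its ranges of 42.2 to 141.0 CPM and 31.9 to 50.2 CPM overlapped. Dnajc4 (0.36, adjusted p = 0.0186) and Dnajc17 (0.41, adjusted p = 0.0034) were called higher, but with library totals they were called lower (-0.44 and -0.43). Among the 10 members of class C that were lower, Dnajc24, which serves diphthamide synthesis, gave -1.59 and the mitochondrial import protein Dnajc19 gave -1.54. Dnajc8, Dnajc21, Dnajc9 and Dnajc2, which act in the nucleus or on the ribosome, ranged from -1.22 (Dnajc8) to -1.09 (Dnajc2). Dnajc12, Dnajc14, Dnajc16, Dnajc28 and Dnajc30 did not pass the test.

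Transcripts of ER chaperones gave the 2 lowest fold changes among the members tested, Dnajb9 and Hsp90b1. The 6 J proteins grouped under the ER were all lower (median -2.29), and each had every EV library below every cell library. The share of all genes that separate in this way was not counted. The group is not a full list. Some J proteins of the ER membrane were counted under class B or C, such as Dnajc18, which was called higher. Dnajb9 (ERdj4), which hands misfolded chains to degradation, had 0 to 2.74 CPM in EVs (median 1.60) and 13.3 to 49.8 CPM in cells (median 27.3). It had 0 to 9 counts per EV library, and the log2 fold change was -4.16 (SE 0.23, adjusted p = 1.92e-18). Dnajb11 (ERdj3) gave -2.95, Dnajc10 (ERdj5) -2.32, Dnajc3 (p58IPK) -2.26, Dnajc1 -1.97 and Dnajc25 -1.94. Hsp90b1 (GRP94), the HSP90 of the ER with a pair of ER stress elements shown above, had 11 to 39.6 CPM in EVs (median 20.1) and 197.8 to 738.7 CPM in cells (median 355.7). The medians differed 17.7-fold, and the log2 fold change was -4.05 (SE 0.20, adjusted p = 1.42e-19). Hspa13, an HSP70 of microsomes, had 1.1 to 10.1 CPM in EVs and 30.7 to 59.3 CPM in cells and gave -3.12 (SE 0.15, adjusted p = 3.59e-20). Serpinh1, the collagen chaperone HSP47 of the ER and no member, gave -3.75 (SE 0.18, adjusted p = 1.04e-19).

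Both cytosolic HSP90 genes and 3 of the 4 cytosolic HSP70 genes tested were lower in EVs. The stress-inducible Hsp90aa1 had 13.1 to 30.5 CPM in EVs (median 23.9) and 54.7 to 275.3 CPM in cells (median 115.7), with no overlap (-2.49, SE 0.19, adjusted p = 1.09e-14). Its constitutive partner Hsp90ab1 had 207.6 to 411.4 CPM in EVs (median 287.5) and 261.5 to 743.8 CPM in cells (median 459.7), and the groups overlapped (-0.72, SE 0.13, adjusted p = 9.29e-06). Hsp90ab1 thus ranked first among members per kilobase of exon in cells, at 85.1 CPM per kilobase, and the third in EVs at 53.2. The constitutive Hspa8 (HSC70) had 49.4 to 177.3 CPM in EVs (median 93.6) and 68.4 to 852.6 CPM in cells (median 273.8), also with overlap (-1.64, SE 0.26, adjusted p = 5.11e-07). Hspa2 was lower as well (-1.95, SE 0.16, adjusted p = 1.87e-13).

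The inducible HSP70 genes Hspa1a and Hspa1b were near the floor in EVs. Hspa1b had 0 to 2.05 CPM in EVs, with 8 of 18 libraries at 0, and 0.275 to 10.7 CPM in cells (-2.42, SE 0.54, adjusted p = 0.000129). Hspa1a had at most 1 count in any EV library, was at 0 in 12 of 18, and did not pass the filter of this comparison. In cells Hspa1a ranged from 0.269 to 5.50 CPM. The sequences of the pair are nearly identical, so reads can be lost or swapped between them and the values are uncertain. Hspa1l, their neighbour, gave -0.26 (SE 0.32, adjusted p = 0.462).

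The remaining folding machines were lower in EVs with few exceptions. Among the HSP110 genes, Hspa4l had 13.3 to 24.5 CPM in EVs and 39.9 to 100.3 CPM in cells, without overlap. The fitted differences were -1.87 (Hspa4l, SE 0.10), -1.30 (Hsph1, SE 0.16) and -0.88 (Hspa4, SE 0.11). In mitochondria, the HSP70 Hspa9, which pulls proteins through the inner membrane, had 52.3 to 166.6 CPM in EVs (median 81.2) and 225.8 to 446.2 CPM in cells (median 329.1), and Hspd1 had 21.9 to 58.4 and 69.5 to 263.8 CPM. Both had every EV library below every cell library. Hspa9 gave -1.71 (SE 0.14), the chaperonin Hspd1 (HSP60) -1.71 (SE 0.18) and its lid Hspe1 (HSP10) -1.50 (SE 0.20). The genes of Hspd1 and Hspe1 lie head to head and overlap, so their reads may not be fully separated. TRiC folds actin and tubulin. Its subunit Cct8 had 25.3 to 115.2 CPM in EVs (median 35.5) and 105.9 to 284.3 CPM in cells (median 155.5), and 1 EV library reached into the range of the cells. Fold changes of the subunits ran from -1.97 (Cct8) to -0.40 (Cct4), with Cct6a at -1.41, Cct5 at -1.12 and Cct2 at -0.90. Tcp1, the TRiC subunit whose symbol is outside the rule, gave 0.22 (SE 0.14, adjusted p = 0.139). Cct6b, the testis paralog of Cct6a, was at 0.511 to 5.41 CPM in EVs and 0.449 to 1.01 CPM in cells (2.00, SE 0.19, adjusted p = 3.47e-12). Hspa12a (1.38) and Hspa12b (0.91), distant HSP70 relatives, were higher in EVs, and Hspa14 of the ribosome-associated complex was lower (-1.49).

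Class B J proteins and small heat shock proteins were at low levels. Dnajb1 (HSP40), a classical heat shock gene, had 3.3 to 15.2 CPM in EVs and 21.1 to 70.8 CPM in cells (-1.96, SE 0.17, adjusted p = 3.03e-13). Dnajb4 gave -1.88 and Dnajb6, a suppressor of aggregation, -0.82. Dnajb13 (1.09) and Dnajb2 (0.49) were higher in EVs, although Dnajb2 was at -0.30 with library totals. Of the 8 small heat shock genes 3 were tested, and only Hspb8 was called (-1.79, SE 0.33, adjusted p = 9.37e-06). Hspb1 (HSP27) stayed under the filter with 0 to 7 counts per EV library and 2 to 38 counts per cell library. Of the regulators, Hsf1 was lower in EVs (-0.35, SE 0.09, adjusted p = 0.000648), but not past the threshold without pregnancy 5 (-0.17, adjusted p = 0.195). Hsf2 was lower at 4.09 to 13.8 CPM in EVs and 26.6 to 43.0 CPM in cells (-1.88, SE 0.12, adjusted p = 5.35e-17) and Hsf2bp, which encodes a binding partner of Hsf2 and no factor itself, was higher (1.12, SE 0.30, adjusted p = 0.00103).

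The members that were not tested in this comparison were Cct8l1, Dnajb3, Dnajb7, Dnajb8, Dnajc22, Dnajc5g, Hsf3, Hsf4, Hspa1a, Hspb1, Hspb2, Hspb3, Hspb7 and Hspb9. Dnajb3, Dnajb7, Hspb2 and Hspb3 had 0 counts in all 36 libraries. Of 14 classical targets of Hsf1, all of them members, 12 were tested. All 12 were called lower, around a median of -1.68, beside 42.2% of all genes. The heat shock genes Hspa1a and Hspb1, under the filter here, went different ways on few counts. The EV mean of Hspb1 was higher in 5 of 6 cultures, and that of Hspa1a was lower in 6 of 6. Of 44 other chaperones and co-chaperones outside the rule, 42 were tested, with a median of -0.70. Of these 29 were lower and 5 higher, beside 42.2% and 38.4% of all genes. With library totals 40 were lower and 0 higher, beside 60.8% and 22.4% of all genes. With no filter on low counts 39 of 44 were lower and 2 higher, beside 9377 and 12652 of 31069 genes. In the fit scaled by TMM, the HSP70 co-chaperone St13 (HIP) of this list gave -1.18, Bag3 -1.50 and Stip1 -1.39. The ubiquitin ligase Stub1 (CHIP) gave 0.91 in that fit. Across the 72 members tested the fold change ran against the level in cells (Pearson r = -0.46, Spearman rho = -0.50). It showed little relation to exon length (r = -0.01, n = 71). The level in cells enters the fold change, and members share libraries, so these are descriptions across genes.

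Ethanol left no chaperone gene past the threshold. The comparison asks whether a dose changed a gene within the same culture, in 6 cultures. In cells 0 of 76 members were called at 120 mg/dL, beside 0.0% of 17792 genes, and 0 of 76 at 320 mg/dL, beside 0.0393%. In EVs 0 of 61 members were called at 120 mg/dL, beside 0.00842% of 11880 genes, and 0 of 61 at 320 mg/dL, beside 0.0842%. At an unadjusted p under 0.05 edgeR gave 2 members in cells at 120 mg/dL, 10 in cells at 320 mg/dL, 4 in EVs at 120 mg/dL and 8 in EVs at 320 mg/dL. The shares of all genes past that mark were 2.5%, 8.57%, 6.26% and 11.9%. DESeq2 also called 0 members in each of the 4 comparisons, beside 0.0131%, 0.308%, 0.0439% and 0.902% of all genes.

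In cells the 95% intervals kept most members within a 2-fold change. At 320 mg/dL the intervals of 74 of 76 members lay inside a log2 fold change of 1 in either direction, and at 120 mg/dL those of 75. Hspa8 had 93.6 to 539.4 CPM in control cells (median 248.5), 97.2 to 852.6 CPM at 120 mg/dL (median 230.0) and 68.4 to 540.1 CPM at 320 mg/dL (median 278.2). The 3 ranges overlapped. Hspa1b had medians of 1.37, 1.60 and 1.97 CPM at 0, 120 and 320 mg/dL, and its highest library was the female culture of pregnancy 3 at 320 mg/dL with 10.7 CPM. Hspa1a gave the largest positive estimate, 0.85 (95% interval 0.05 to 1.66, adjusted p = 0.556, higher in 5 of 6 cultures), on few counts. Dnajc5b gave 0.72 (0.30 to 1.13, adjusted p = 0.292, higher in 5 of 6 cultures) and Cct6b 0.42 (0.09 to 0.76, adjusted p = 0.465), both also low in counts.

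Of the 6 J proteins grouped under the ER, 3 had negative and 3 positive estimates in cells at 320 mg/dL. Those with an unadjusted p under 0.05 were both negative. Dnajb11 gave -0.29 (-0.48 to -0.11, adjusted p = 0.339, lower in 6 of 6 cultures) and Dnajc3 -0.22 (-0.41 to -0.03, adjusted p = 0.498, lower in 4 of 6 cultures), while Dnajb9 gave 0.01 and Dnajc10 0.02. Of the other ER chaperones, Hspa13 gave -0.02 and Hsp90b1 -0.21 (-0.42 to -0.00, adjusted p = 0.574). The mitochondrial Hspa9 gave -0.21 (-0.39 to -0.04, adjusted p = 0.489) and was lower in 6 of 6 cultures. Hspa4l went the other way, with 0.15 (0.02 to 0.28, adjusted p = 0.521), and was higher in 6 of 6 cultures. Across the 14 classical Hsf1 targets in cells the median was -0.01 at 120 mg/dL and 0.02 at 320 mg/dL, beside -0.01 and -0.00 over all genes. None of these estimates passed the adjusted test.

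In EVs the estimates were less precise. The intervals of 57 of 61 members lay inside a log2 fold change of 1 at 320 mg/dL. The smallest unadjusted p at 320 mg/dL was that of Dnajc7, an HSP70 and HSP90 adaptor, with 0.35 (0.08 to 0.62, adjusted p = 0.274, higher in 5 of 6 cultures). Hsp90aa1 gave 0.35 (0.01 to 0.70, adjusted p = 0.4) and Hsp90b1 0.48 (-0.00 to 0.97, adjusted p = 0.422). Cct4 gave -0.35 (-0.66 to -0.04, adjusted p = 0.342). Dnaja4 had medians of 507.6, 653.4 and 698.2 CPM in EVs at 0, 120 and 320 mg/dL, inside ranges of 190.8 to 986.9, 193.6 to 1133 and 170.3 to 1569 CPM.

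**Figure D4:**
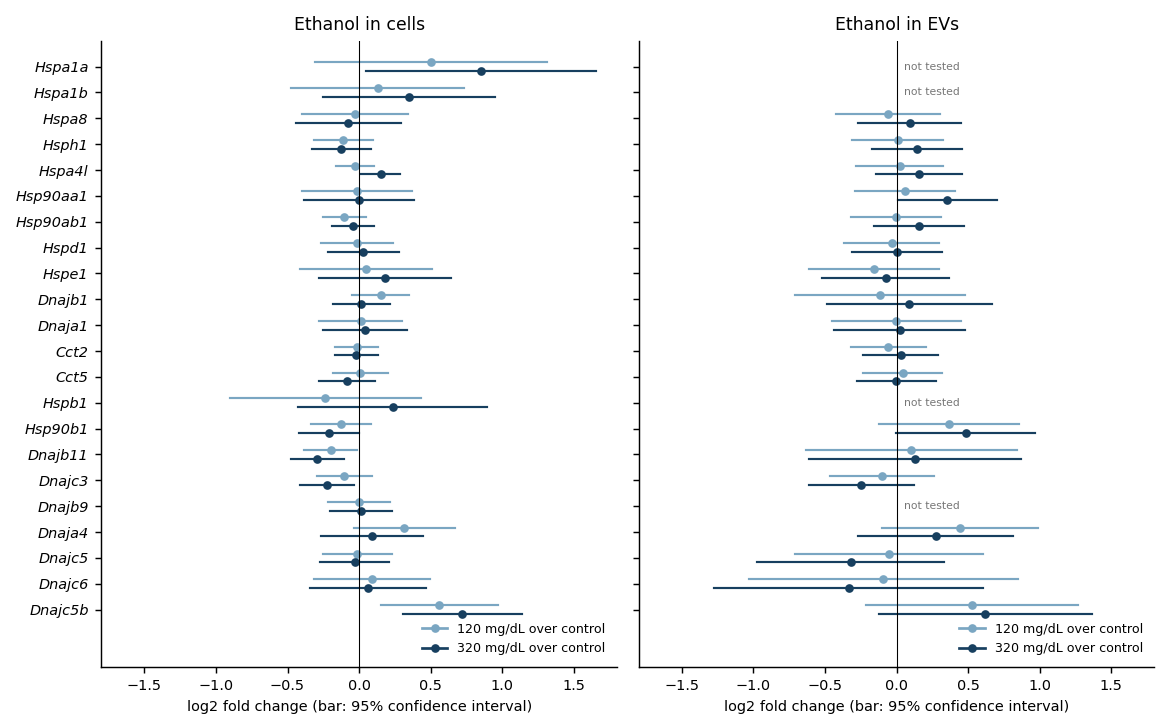
Log2 fold change of each ethanol dose over control with its 95% confidence interval, for 22 members in cells (left) and EVs (right), in fits with the culture as a block. Members marked as not tested were under the filter on low counts in EVs. The cell estimate of Dnajb11 at 320 mg/dL is -0.29 and that of Hspa1a is 0.85, and no member passed the adjusted test.

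Whether ethanol moved a transcript between cells and EVs was tested as the interaction of location and dose. Of 72 members 0 passed at 120 mg/dL, beside 0.00654% of 15281 genes, and 0 at 320 mg/dL, beside 0.0%. No member had an unadjusted p under 0.05 in this edgeR fit at either dose. The shares of all genes past that mark were only 0.72% at 120 mg/dL and 1.17% at 320 mg/dL. The intervals were wide, with a median half-width of 0.79 at either dose, so that changes near 2-fold were not detectable for many members.

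The share of chaperone genes called between female and male cultures was near that of all genes. In cells 5 of 74 members were called, beside 5.83% of 17052 genes. The fits by sex take the 3 dose libraries of a culture as separate units. Their SE and p-values therefore measure the spread among libraries and not among cultures, and the p-values can be too small. The same holds for the interaction of sex and location below. Dnajc6 had 7.56 to 17.03 CPM in the 9 female and 3.20 to 6.51 CPM in the 9 male libraries, without overlap (1.46 in females over males, SE 0.18, adjusted p = 0.000466). Dnajc5 was also higher in females in cells (0.48, SE 0.10, adjusted p = 0.00729), at 154.6 to 220.8 CPM beside 108.5 to 147.96 CPM. The share of all genes that separate in full by sex was not counted. Hspa2 was lower in females (-0.53, SE 0.11, adjusted p = 0.0115), as were Dnajb5 and Hsf2bp. In EVs 5 of 58 members were called, beside 11.1% of 11037 genes. Hsf2bp (1.26), Dnajc5b (1.12), Dnajc1 (0.75) and Dnajc8 (0.56) were higher in females and Dnajb2 lower (-0.73). Of the 6 EV libraries under 2000000 counts, 4 were female, and Hsf2bp had a median of 6.88 CPM in the 6 and 3.31 CPM in the other 12, with Dnajc5b at 4.73 and 3.05 CPM. Without these libraries 0 of 60 members were called in EVs, beside 0.26% of all genes. At an unadjusted p under 0.05 there were 16 members, beside 2687 of 11551 genes. The difference of Hsf2bp without them was 0.99 (adjusted p = 0.159). With library totals only Hsf2bp was called in EVs, beside 2.84% of all genes. With the pregnancy as a replicate block the counts were 15 of 74 in cells (17.3% of all genes) and 10 of 58 in EVs (27.1%). With counts summed over the 3 doses of a culture, 0 members were called in either, beside 0.0334% of all genes in cells and 0 in EVs. At an unadjusted p under 0.05 there were 4 members in cells, beside 1398 of 20972 genes, and 8 in EVs, beside 2229 of 14847. DESeq2 called 8 members in cells (6.79% of all genes) and 8 in EVs (9.42%). Without pregnancy 5 the counts fell to 1 in cells (Dnajc6), beside 198 of 16993 genes, and 0 in EVs, beside 2 of 9841. Without pregnancy 4 the EV count was 1, beside 407 of 11008 genes. Leaving out pregnancy 3 gave 10 in each, beside 2095 of 17068 genes in cells and 2616 of 11306 in EVs.

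Hsf2bp in cells was set by 1 culture. The 3 libraries of the male culture of pregnancy 5 held 4.43 to 6.50 CPM, and the other 15 held 0.898 to 2.05 CPM. Without pregnancy 5 the sex difference in cells was -0.35 (adjusted p = 0.345). The sex difference of Hsf2bp ran in opposite directions in EVs and cells, and the interaction of sex and location was 2.28 (SE 0.35, adjusted p = 0.00114). In all 4 of 72 members passed that interaction, beside 6.03% of all genes, namely Hsf2bp, Dnajc1 (1.17), Cct4 (-0.69) and Dnajc3 (-0.73). The count was 2 (Hsf2bp and Dnajc1) with library totals, beside 270 of 15281 genes. The same 2 passed with no filter on low counts, beside 439 of 31069, and without the 6 shallow EV libraries, beside 631 of 17154. Only Dnajc1 passed without pregnancy 5, beside 30 of 14810 genes. Without pregnancy 3 the count was 11, beside 2573 of 15062.

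Several heat shock genes stood at separate levels in cells of different pregnancies. An F test over the 3 pregnancies, added after the data were seen, called 43 of 76 members in cells, beside 40.4% of all genes, and 14 of 61 in EVs, beside 19.7%. The libraries of a culture are not independent litters. With counts summed over doses 0 members were called in either, beside 0 of 21690 genes in cells and 0 of 16152 in EVs. At an unadjusted p under 0.05 there were 12 members in cells, beside 2246 genes, and 3 in EVs, beside 1217 genes. The count in EVs was 9 with library totals, beside 1847 of 11880 genes, and 2 with no filter on low counts, beside 1283 of 29604. Without the 6 shallow EV libraries it was 19, beside 4427 of 12337 genes. Hspa8 had 272.9 to 852.6 CPM in cells of pregnancy 3, 187.2 to 326.9 in pregnancy 4 and 68.4 to 189.7 in pregnancy 5, so that pregnancies 3 and 5 did not overlap. Hsp90ab1 showed the same order, with 593.6 to 743.8, 351.6 to 531.4 and 261.5 to 431.0 CPM. Hspd1 had 128.4 to 263.8 CPM in pregnancy 3 and 69.5 to 99.9 CPM in pregnancy 5, and Cct6a 244.9 to 401.2 beside 111.1 to 156.8 CPM. The share of all genes that separate in full between pregnancies was not counted. Dnajb1, although a classical heat shock gene, had its lowest median in pregnancy 3, at 21.1 to 31.4 CPM beside 30.9 to 70.8 CPM in pregnancy 5. Its medians in pregnancies 3 and 4 were close, at 26.6 and 28.1 CPM. The male culture of pregnancy 5 alone held 49.5 to 70.8 CPM, and the other 15 cell libraries held 21.1 to 40.6 CPM. Dnajb9 was also lower in pregnancy 3 (13.3 to 21.5 CPM) than in pregnancies 4 (27.0 to 49.8 CPM) and 5 (23.5 to 44.6 CPM). In EVs the pregnancies overlapped more, with Hspa8 at 87.0 to 127.9, 59.1 to 177.3 and 49.4 to 88.0 CPM and Hsp90ab1 at 249.4 to 329.3, 207.6 to 344.5 and 239.0 to 411.4 CPM. The female culture of pregnancy 3 stood highest for Hspa8 at 120 mg/dL (852.6 CPM), while its male partner was at its lowest there (272.9 CPM).

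**Figure D5:**
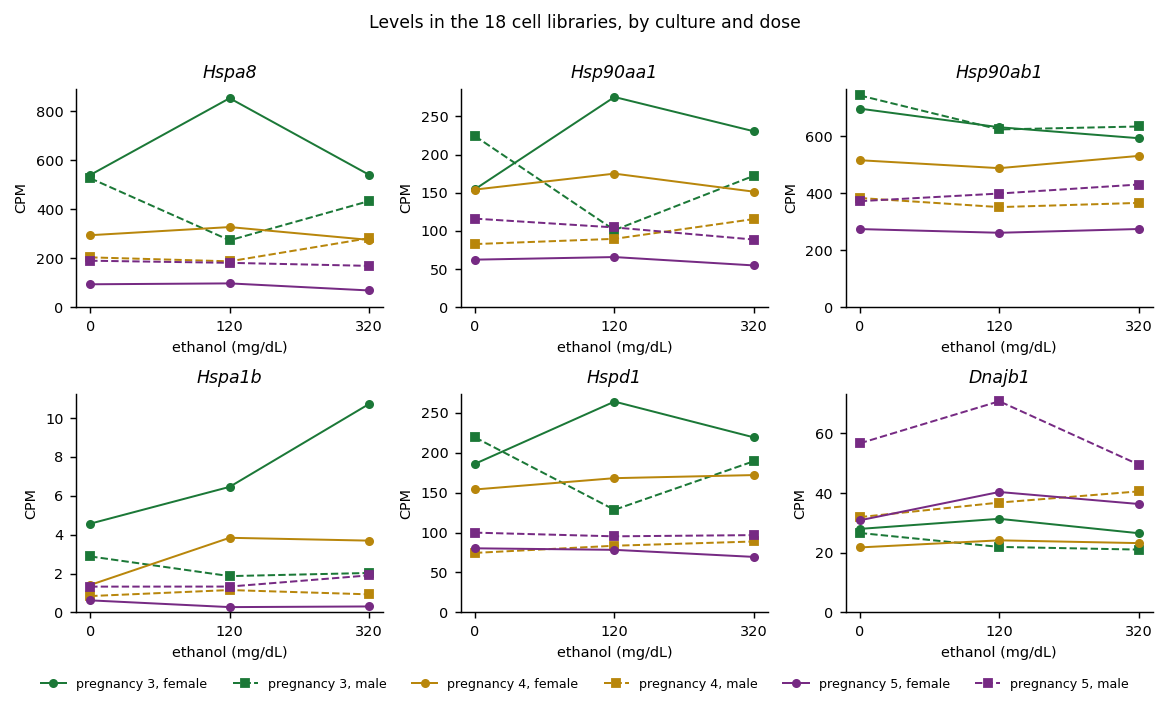
CPM of 6 heat shock genes in the 18 cell libraries by ethanol dose in mg/dL, with a line for each culture, coloured by pregnancy, solid for female and dashed for male. Hspa8 in pregnancy 3 (272.9 to 852.6 CPM) lies above pregnancy 5 (68.4 to 189.7 CPM) at every dose. Dnajb1 lies at 21.1 to 31.4 CPM in pregnancy 3 and 30.9 to 70.8 CPM in pregnancy 5, where the male culture holds 49.5 to 70.8 CPM.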

How the data were processed

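Per the labels and the study's methods, RNA was depleted of ribosomal RNA, made into stranded libraries and sequenced in 1 pooled run. Cell RNA was intact, and no integrity number could be computed for EV RNA. The authors trimmed reads with Trimmomatic, aligned them to mm39 with STAR and counted genes with HTSeq, and the deposited values are raw counts per gene in 36 libraries. The strand setting of HTSeq is not given in the sources used here, and 39 of the 85 members found in the annotation overlap another coding gene, where reads can be dropped or shared.

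Counts were fitted with edgeR 4.0.16 in R 4.3.3 (TMM, filterByExpr with a minimum count of 10, quasi-likelihood F tests, Benjamini-Hochberg over all genes tested). EVs were compared with cells with sex and dose as terms. Ethanol was compared within cells and within EVs with the culture as a block, the interaction of location and dose with the pair of libraries as a block, and sex with dose as a term. DESeq2 1.42.0 was an alternative. Scripts were tested on simulated data. Members, lists and tests were chosen with earlier results of these data known. Named genes were a fixed list of leading members of each role, plus the 3 called members with the largest change in each direction that were the same way in every culture; others were named after their values were seen. Exon lengths came from GENCODE for GRCm39.

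Library numbers pair the samples because EV and cell libraries, and the doses, come from the same culture and female and male cultures from the same litter. The median correlation of deviations was 0.072 between EV and cell libraries, 0.715 and 0.621 between each dose and control in cells, and 0.191 and 0.210 in EVs. Intervals and tests cover the spread among libraries and counting error.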

Additional observations from a re-analysis of the deposited data

Results flagged for a closer look

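The location and dose groups of 6 libraries were searched for single libraries far from the rest, over those of the 37 named genes that passed the filter on low counts. Of 198 groups, 22 held such a library. The limit used flags about 1 in 20 groups when values spread normally and groups are independent. The CPM values were not checked for that spread, and the groups share libraries, so the count is a description and no test. Among EV libraries without ethanol these were Cct2 at 119.8 CPM (male, pregnancy 4, beside 67.6 to 84.5 in the others), Dnajc13 at 25.7 and Hspa9 at 161.8 (both female, pregnancy 5), and Dnajc5b at 9.27 (female, pregnancy 4). At 120 mg/dL in EVs Hspa4l was low at 14.7 CPM (male, pregnancy 4). At 320 mg/dL in EVs the female library of pregnancy 4, which is under 2000000 counts, held Dnajc5 at 2112 CPM (beside 283.2 to 852.1) and Dnajc6 at 192.4 CPM (beside 9.99 to 40.8), and the male library of the same pregnancy held Hsp90aa1 at 20.0 CPM. The part of depth in these values was not tested.

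In cells the female culture of pregnancy 3 was the far library for 7 of these groups. It held Hspa4l at 43.4 CPM without ethanol (low), Hspa8 at 852.6, Dnaja1 at 104.6 and Dnajc5b at 0.981 CPM at 120 mg/dL, and Dnaja1 at 116.7, Hspa1b at 10.7 and Hspe1 at 144.3 CPM at 320 mg/dL. The male culture of pregnancy 3 held Hspb8 at 7.84 CPM at 320 mg/dL, beside 1.1 to 1.70. The male culture of pregnancy 5 held Hsf2bp at 4.43, 4.86 and 6.50 CPM at 0, 120 and 320 mg/dL, Dnajb1 at 56.7 CPM without ethanol, and Dnajc1 at 146.9 and Hsf1 at 22.5 CPM at 320 mg/dL.

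The sex difference differed between EVs and cells, by the interaction of sex and location in edgeR, for Hsf2bp (2.28), Dnajc1 (1.17), Cct4 (-0.69) and Dnajc3 (-0.73), as log2 fold change of females over males in EVs minus that in cells.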

How the results depend on the processing

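The count of members lower in EVs stayed within 1.5 times its value of 47 under all alternatives run. The count higher in EVs, 14, was 7 with library totals and 12 whichever pregnancy was left out. It was 8 in the control libraries alone, beside 4821 of 15858 genes. With every library thinned to the smallest total it was 9 of the 50 members that could be tested, beside 3183 of 8116 genes. Counts summed over the 3 doses of a culture gave 10 higher and 49 lower of 76 members, beside 6896 and 7033 of 19677 genes. Leaving out a pregnancy gave 45 to 48 lower. Over the 32 genes named for the EV and cell comparison and tested there, Hspa1l, which was not called, ran from -0.80 to 0.19 when 1 pregnancy was left out, turning its sign without pregnancy 3, and no other sign among the 32 changed. Outside them, library totals turned the sign of 7 members, of which Dnajb2, Dnajc4 and Dnajc17 had been called higher. With pairs of EV and cell libraries as a replicate block the counts were 14 higher and 48 lower. The ethanol and interaction comparisons stayed at 0 members in every fit, including those without the replicate block. Calls by sex in cells (5) were 8 with DESeq2, 15 with the pregnancy as a replicate block, 0 with counts summed over doses, and 1 to 10 without 1 pregnancy. Those in EVs (5) were 8 with DESeq2, 1 with library totals and 3 with no filter on low counts (beside 1805 of 29604 genes). They were 0 without the EV libraries under 2000000 counts, an alternative chosen after seeing the data. They were 10 with the replicate block, 0 with counts summed over doses, and 0 to 10 without 1 pregnancy. The block changed no other call by more than 1.5 times. The cause of these shifts was not tested. At the depth of the EV libraries, members with few EV counts (Dnajb9, Hspa1b, Dnajc5b, Cct6b) have imprecise EV levels.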
